A study of Mus musculus with 6 samples.

Results

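The phospholipid phosphatase-related proteins (PLPPR, also called plasticity-related genes) and the phospholipid phosphatases (PLPP) were followed in mouse pancreatic islets, which hold the insulin-producing β cells among other endocrine cells. The set held 8 genes, Plppr1 to Plppr5 and Plpp1 to Plpp3, of 22180 genes measured, and each was read by 1 probe set that named no other gene. The family was chosen by name, selected on the measured difference of 1 member, Plppr5, which was already known to be among the genes that differed most between the genotypes on these arrays. The difference of Plppr5 is therefore a description and carries no test here, and the other members, which belong to the same contrast, are given with their intervals and likewise without a test.

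Islets came from mice aged 5 weeks on the C57BL/6J background, labelled female. The Sel1L-deficient group (3 arrays) carried floxed Sel1L alleles and Ins1Cre, a Cre recombinase inserted at the Ins1 locus and active in β cells. The wildtype group (3 arrays) was made of littermates with the same floxed alleles, per the labels' protocols, so that the Cre allele and the loss of Sel1L cannot be told apart in this design. Islet cells other than β cells keep Sel1L, an adaptor of the HRD1 ubiquitin ligase in ER-associated degradation, and all islets spent a night in culture before RNA extraction.

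PLPP enzymes sit in the plasma membrane and internal membranes as multi-pass proteins, and they remove the phosphate from bioactive lipids such as lysophosphatidic acid (LPA), sphingosine 1-phosphate (S1P) and phosphatidate. PLPPR proteins share the fold of these enzymes but lack residues that the enzymes need for catalysis, and they are known mainly from neurons, where several of them drive filopodia, neurite growth and synaptic changes.

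Values are log2 RMA summaries, in which a step of 1 is a doubling. The arrays had medians between 3.08 and 3.16 over all probe sets, and a value near or below them cannot be told from background here. Sel1l read 7.73, 7.65 and 7.68 in Sel1L-deficient islets, against 8.46, 8.56 and 8.76 in wildtype islets (difference -0.90 ± 0.11 SE; limma, Benjamini-Hochberg adjusted p = 0.0312). The arrays of replicate 3 in each genotype carried Y-linked transcripts although the labels give female, with a mean of the Y-linked genes of 6.36 in the Sel1L-deficient one and 6.75 in the wildtype one. On the other 4 arrays that mean lay between 1.44 and 1.84. The labels do not say whether an array holds 1 animal or a pool, so a p-value speaks of the spread among these 6 arrays, which may be technical.

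Plppr5 and Plppr4 lie next to each other on chromosome 3, and their upstream windows are shown because the pair are neighbours whose differences between the genotypes had opposite signs. Each window holds the 250 bases before the RefSeq start site in GRCm38.p6, read 5′ to 3′ along the gene's strand. Plppr5 is at chr3:117574977-117575226 on the plus strand and Plppr4 at chr3:117360877-117361126 on the minus strand. Capitals mark matches to the E-box CANNTG, the sequence class read by basic helix-loop-helix factors, searched on both strands.
Plppr5: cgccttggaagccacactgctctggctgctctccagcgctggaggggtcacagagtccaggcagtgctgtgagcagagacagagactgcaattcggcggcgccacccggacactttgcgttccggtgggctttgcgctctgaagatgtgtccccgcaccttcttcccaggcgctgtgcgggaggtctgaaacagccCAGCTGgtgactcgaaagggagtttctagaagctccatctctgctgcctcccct
Plppr4: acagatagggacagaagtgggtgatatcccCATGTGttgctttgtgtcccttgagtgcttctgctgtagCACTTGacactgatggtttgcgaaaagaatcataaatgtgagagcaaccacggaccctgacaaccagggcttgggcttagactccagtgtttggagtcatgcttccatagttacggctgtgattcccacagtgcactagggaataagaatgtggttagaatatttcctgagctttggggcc

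The Plppr5 window held 1 E-box and the Plppr4 window 2, while 66.2% of all 32851 RefSeq windows of this length held at least 1. The Plppr5 window also held 1 match to CAGAC, the SMAD box, on either strand, a sequence present in 42.2% of all windows and absent from the Plppr4 window. CCACG, the last part of the ER stress element, had no match in the Plppr5 window and 1 in the Plppr4 window, against 28.3% of all windows with a match. The windows also differed in composition, with 61.6% G and C and 13 CpG pairs for Plppr5 and 48% and 3 for Plppr4, beside medians of 52.4% and 6 over all windows. A match describes letters and shows no binding.

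Plppr5, which encodes a neuronal protein known to induce filopodia and neurites, stood far higher in Sel1L-deficient islets. It read 5.69, 6.52 and 5.34 in Sel1L-deficient islets, against 3.90, 3.94 and 3.73 in wildtype islets. The groups did not overlap, and the lowest Sel1L-deficient array lay 1.40 above the highest wildtype array. Group means were 5.85 ± 0.61 in Sel1L-deficient and 3.86 ± 0.11 in wildtype islets (SD, n = 3 each), a difference of 1.99 ± 0.26 SE on the log2 scale with a 95% interval of 1.39 to 2.59, or 3.98-fold. By size of rise Plppr5 ranked 3 among the 22180 genes. The wildtype values were dim, though above the array medians, and RMA can pull such differences toward 0, so the fold is not exact. In whole islets fewer cells of a type and less RNA per cell cannot be told apart, and the same holds for more cells and more RNA.

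The Sel1L-deficient arrays differed among themselves in how far Plppr5 stood above the wildtype mean, by 1.83, 2.66 and 1.48 on replicates 1, 2 and 3. Their SD was 5.50 times that of the wildtype arrays. This ratio was larger for Plppr4 (9.42) and Plppr3 (5.71) and smaller for the other members. Only 0.933% of all genes had a larger SD than Plppr5 among the Sel1L-deficient arrays. All 3 of these arrays nevertheless stood above every wildtype value of Plppr5. The first principal component of all genes held 29.9% of the variance, with its sign set so that Sel1L-deficient arrays lay higher on average. On it these arrays had the same order as for Plppr5, at 24.7 (replicate 2), 18.7 (replicate 1) and -2.61 (replicate 3). With 3 arrays such an order is only a description. The mean of 5 acinar markers ran the other way, at 5.92 (replicate 2), 6.09 (replicate 1) and 7.94 (replicate 3). Its part in this order was not tested. Replicate 3 is the Sel1L-deficient array with Y-linked transcripts, and its Plppr5 value of 5.34 was the lowest of its group. The wildtype array with such transcripts was likewise the lowest of its group, at 3.73. Without replicate 3 of the Sel1L-deficient group the difference was 2.25, and without replicate 2, the highest array, it was 1.66.

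**Figure D1:**
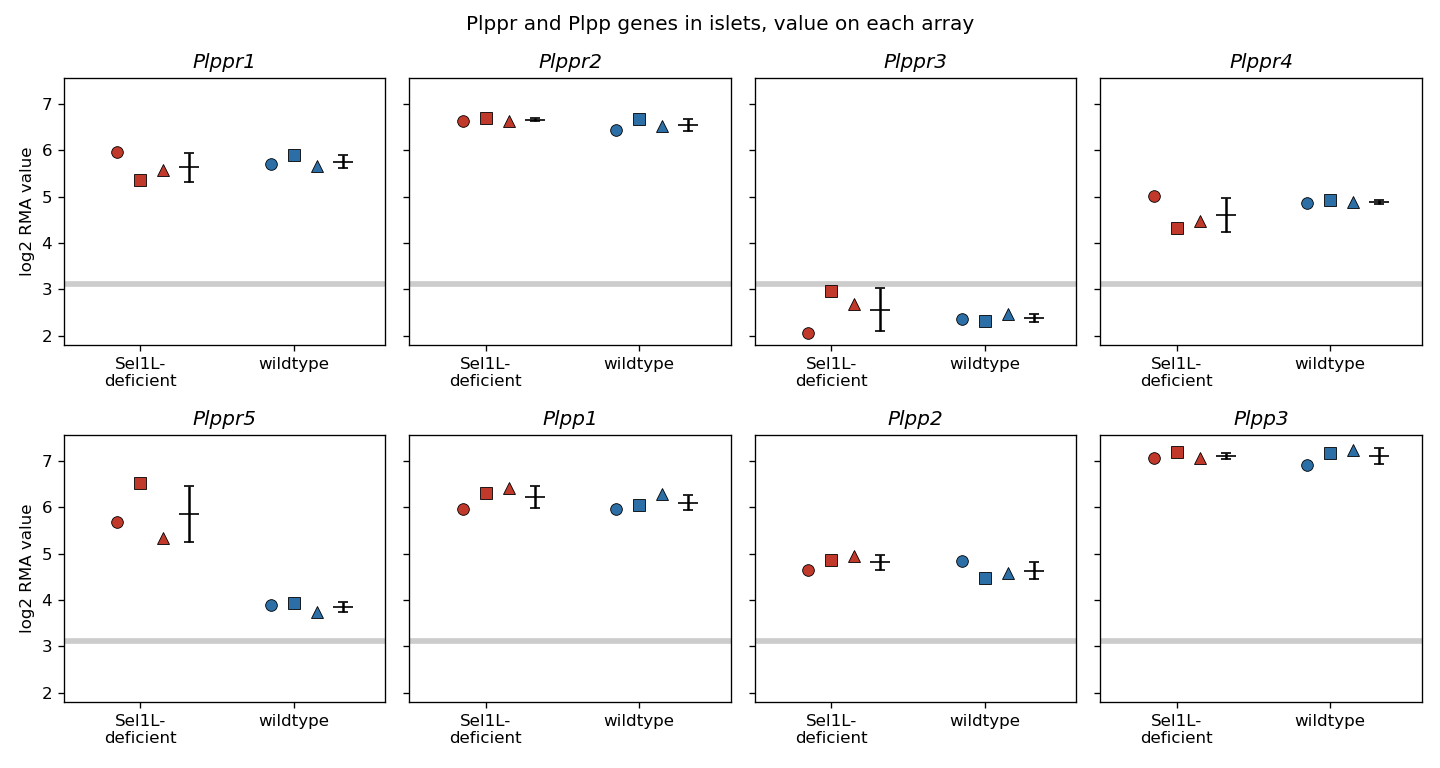
Log2 RMA value (vertical axis) of each of the 8 genes on each array, Sel1L-deficient in red to the left and wildtype in blue to the right, with circle, square and triangle for replicates 1, 2 and 3, bars for mean ± SD (n = 3) and a grey band for the array medians. Plppr5 is the gene whose groups separate, at 5.34 to 6.52 against 3.73 to 3.94, and Plppr3 is the gene below the band.

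Plppr4, known in mice as PRG-1, dampens the action of LPA at excitatory synapses. It read 5.01, 4.32 and 4.48 in Sel1L-deficient islets, against 4.86, 4.93 and 4.88 in wildtype islets. Sel1L-deficient replicate 1 stood above all wildtype arrays and the other two below, so the groups overlapped. The difference was -0.29 ± 0.17 SE with a 95% interval of -0.68 to 0.11, the most negative of the 8 genes. The wildtype arrays were tight, with an SD of 0.04 (n = 3), while the Sel1L-deficient SD was 0.36 (n = 3). Without Sel1L-deficient replicate 1 the difference was -0.49, and without replicate 2 it was -0.15.

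Plppr1, also called PRG-3, promotes filopodia and neurite growth. It read 5.97, 5.35 and 5.58 in Sel1L-deficient islets, against 5.71, 5.91 and 5.65 in wildtype islets, with overlap in both directions. The difference was -0.12 ± 0.17 SE (95% interval -0.50 to 0.26). Among the Sel1L-deficient arrays Plppr1 and Plppr4 had the same order, highest in replicate 1 and lowest in replicate 2, which was the array with the highest Plppr5. With 3 arrays this is a description of single values. Without Sel1L-deficient replicate 2 the sign of the Plppr1 difference turned, to 0.02. A further probe set names Plppr1 together with Mtfr1 and was not used here.

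Plppr3, also called PRG-2, acts in axon branching. It read 2.06, 2.96 and 2.68 in Sel1L-deficient islets, against 2.35, 2.32 and 2.47 in wildtype islets. All 6 values lay under the array medians, where signal and background cannot be told apart. The difference was 0.18 ± 0.21 SE (95% interval -0.30 to 0.66), and without Sel1L-deficient replicate 2 it was -0.01.

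Plppr2, also called PRG-4, is the least described of the family. It read 6.64, 6.71 and 6.64 in Sel1L-deficient islets, against 6.43, 6.68 and 6.53 in wildtype islets. Only the wildtype replicate 2 value reached into the Sel1L-deficient range. The difference was 0.12 ± 0.11 SE (95% interval -0.13 to 0.36). The Sel1L-deficient arrays were the tighter group, with an SD of 0.04 against 0.12 in wildtype (n = 3 each), the reverse of Plppr1, Plppr3, Plppr4 and Plppr5.

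The catalytic enzymes had differences whose intervals all include 0. Plpp1, a widely expressed ecto-phosphatase that degrades LPA, read 5.96, 6.32 and 6.41 in Sel1L-deficient islets, against 5.97, 6.05 and 6.29 in wildtype islets. The difference was 0.12 ± 0.15 SE (95% interval -0.22 to 0.47), and the groups overlapped over most of their range.

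Plpp2, a further enzyme with the same substrates, read 4.64, 4.87 and 4.95 in Sel1L-deficient islets, against 4.84, 4.48 and 4.59 in wildtype islets. Its difference was 0.18 ± 0.13 SE (95% interval -0.13 to 0.49). Wildtype replicate 1 stood above Sel1L-deficient replicate 1, so the groups overlapped.

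Plpp3, an enzyme that limits LPA signalling in vessel walls, read 7.06, 7.19 and 7.07 in Sel1L-deficient islets, against 6.92, 7.18 and 7.25 in wildtype islets. The difference was -0.01 ± 0.12 SE (95% interval -0.28 to 0.26). Its sign turned in several alternative settings, with values from -0.11 to 0.08. None of the 9 measured endothelial markers passed the threshold, while 6 had an unadjusted limma p under 0.05 (9.48% of all genes). All 9 had positive differences, 5 of them without overlap between the genotypes (15.1% of all genes), and the mean over the list was 6.68 to 6.86 in Sel1L-deficient and 6.15 to 6.58 in wildtype arrays. Whether they affected the Plpp3 value was not tested.

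Set side by side, 1 of the 8 members passed an adjusted p under 0.05 in the fit over all genes, and the share of all genes that passed was 0.243%. The share that rose was 0.0902%. The member was Plppr5, through which the family was chosen, so nothing is read from that count. It became 0 without Sel1L-deficient replicate 1 and without wildtype replicate 1, 2 or 3. The other 7 members had differences of at most 0.29 in size, with a median of 0.12, and overlapped between genotypes in every case, while 15.1% of all genes did not overlap. The median size of difference over all 22180 genes was 0.11. Of these 7 members, 4 had a positive difference. Each of the 7 intervals includes 0, which does not show that a gene was the same in both genotypes, and they reach as far as -0.68 for Plppr4 and 0.66 for Plppr3.

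**Figure D2:**
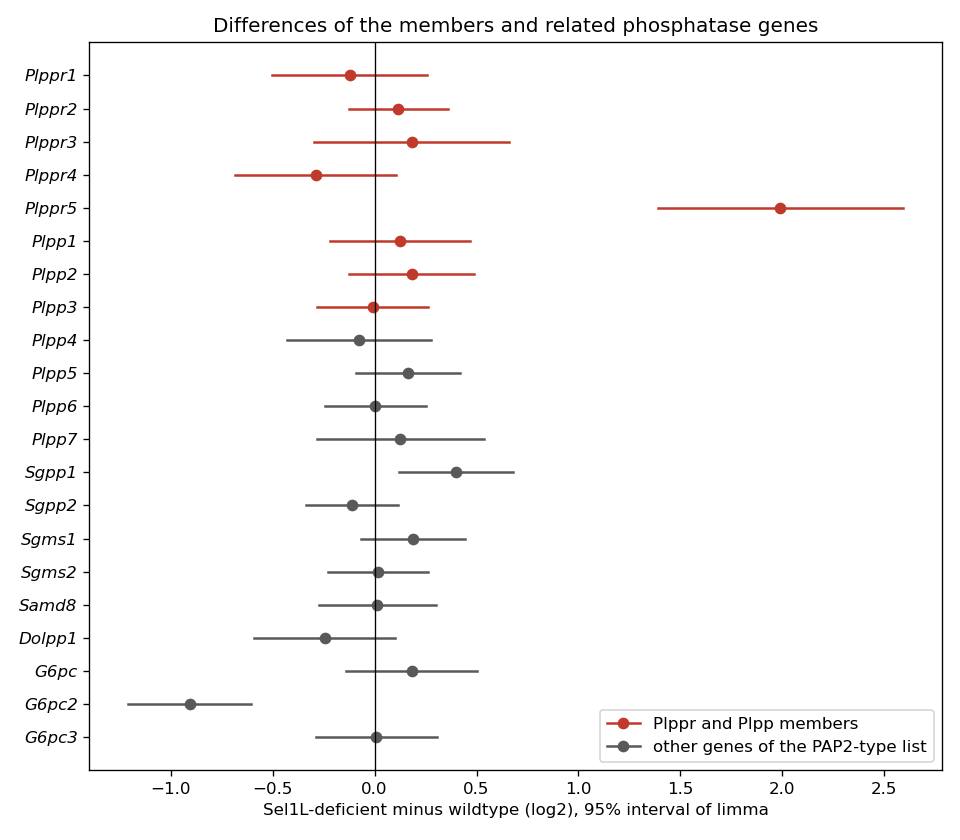
Difference between Sel1L-deficient and wildtype islets (log2, horizontal axis) with its 95% interval from limma, for the 8 members in red and 13 other genes of the PAP2-type phosphatase list in grey. Plppr5 lies at 1.99 to the right of the rest and G6pc2 at -0.91 to the left.

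The neighbourhood of Plppr5 on chromosome 3 was examined with the 4 nearest measured genes on each side, in the gene order of GRCm38.p6. In that order they were Palmd, 4930455H04Rik, 1700061I17Rik and Plppr4 on one side and Snx7, Mir137, Dpyd and Ptbp2 on the other. Their differences ran from -0.29 for Plppr4 to 0.28 for Palmd, a gene of a paralemmin-like protein, against 1.99 for Plppr5. None of the 8 passed the threshold (limma, Benjamini-Hochberg over all genes, with adjusted p from 0.498 for Palmd to 0.989 for Dpyd), and 1 of them, Palmd, had an unadjusted p under 0.05, as did 9.48% of all genes. The next gene beyond Plppr5, Snx7, a sorting nexin, read 5.67, 5.69 and 5.69 in Sel1L-deficient islets, against 6.01, 5.70 and 5.86 in wildtype islets. Its values in Sel1L-deficient islets lay below all wildtype values, though only just, at 5.69 against 5.70 (difference -0.18 ± 0.11 SE, adjusted p = 0.70). Palmd and 1700061I17Rik did not overlap either, with Sel1L-deficient values above wildtype ones. Of all genes, 15.1% did not overlap. The values of 4930455H04Rik, 1700061I17Rik and Mir137 lay below the array medians.

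**Figure D3:**
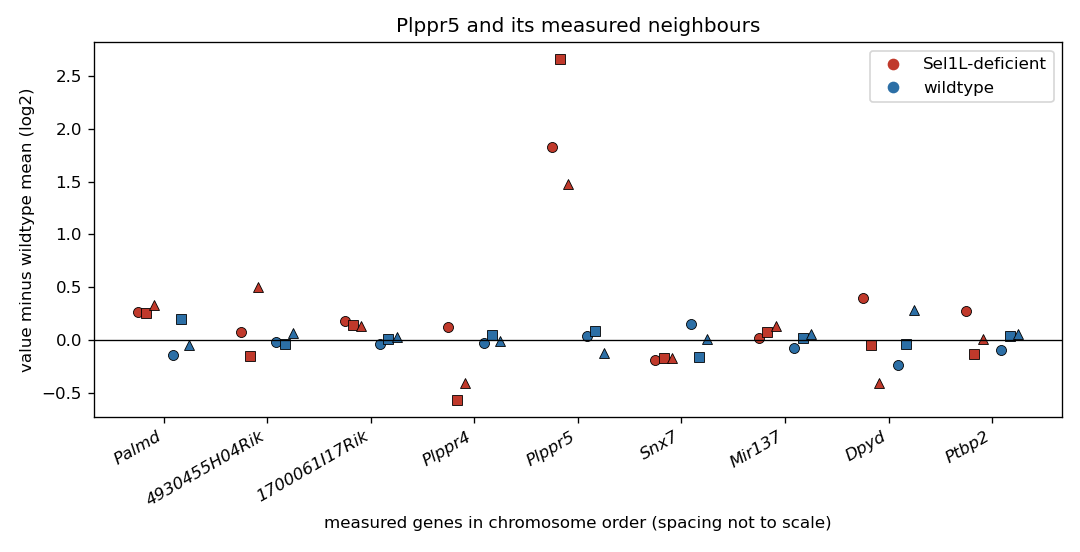
Value of each array minus the wildtype mean of the gene (log2, vertical axis) for Plppr5 and the 4 nearest measured genes on each side in chromosome order, Sel1L-deficient in red to the left and wildtype in blue to the right, with circle, square and triangle for replicates 1, 2 and 3. The Plppr5 values in Sel1L-deficient islets stand 1.48 to 2.66 above the wildtype mean, and the neighbouring value farthest from 0 is one of Plppr4, at -0.57.

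Over the 6 arrays, 5 genes had the highest Pearson correlation with Plppr5, used here as a measure of likeness with no test. They were Lcn11 (r = 0.992), Zmym5 (r = 0.992), Rpl29 (r = 0.991), Neurog3 (r = 0.987) and Gbp11 (r = 0.986). The 6 points share 2 genotypes, so each r mostly carries the step between the groups, and 237 of 22179 genes lay beyond 0.95 in size. Neurog3, the transcription factor that starts endocrine differentiation in the embryo, read 6.85, 7.09 and 6.74 in Sel1L-deficient islets, against 5.80, 5.76 and 5.73 in wildtype islets. Gbp11, a guanylate-binding protein, read 5.75, 6.14 and 5.11 in Sel1L-deficient islets, against 2.80, 3.03 and 2.90 in wildtype islets. In Neurog3 and Gbp11, as in Plppr5, Sel1L-deficient replicate 2 was highest and replicate 3 lowest. Lcn11 had all its values and Gbp11 its wildtype values below the array medians, and the differences of Zmym5 and Rpl29 were 0.15 and 0.22.

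The 3 genes that ran most against Plppr5 were Tmem184c (r = -0.997), Pfkfb2 (r = -0.994) and Gsto1 (r = -0.993). Pfkfb2, an enzyme that sets the level of a glycolytic activator, read 7.41, 7.11 and 7.51 in Sel1L-deficient islets, against 8.03, 7.92 and 7.98 in wildtype islets. Gsto1, a glutathione transferase, read 5.37, 4.98 and 5.38 in Sel1L-deficient islets, against 5.84, 5.83 and 5.88 in wildtype islets. Neither passed over all genes (limma adjusted p = 0.160 and 0.181). Within the family, r with Plppr5 was 0.67 for Plppr2 and -0.65 for Plppr4 at its ends.

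**Figure D4:**
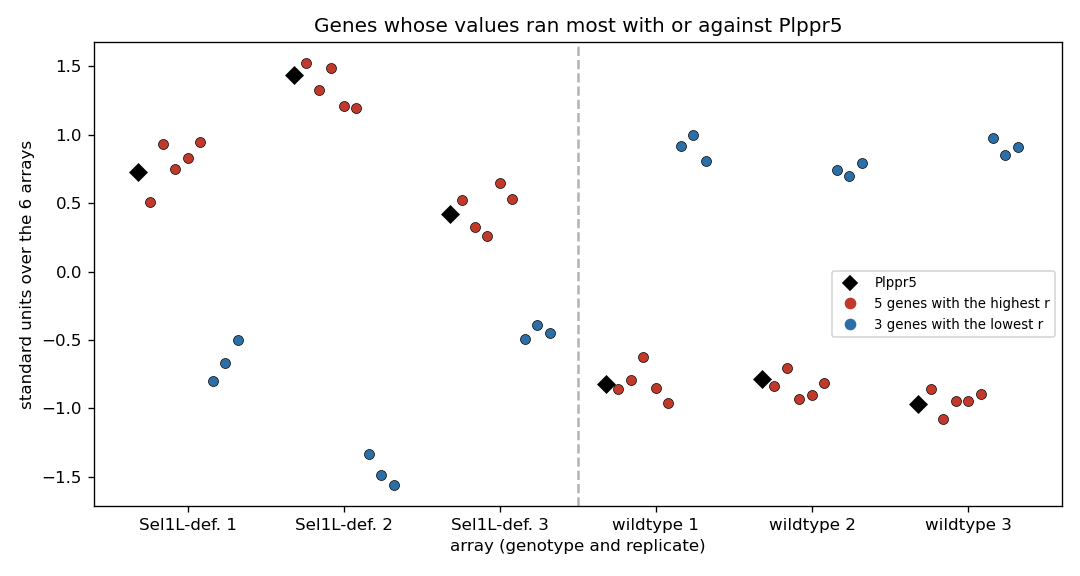
Values of Plppr5 (black diamonds), the 5 genes with the highest correlation with it (red) and the 3 with the lowest (blue) on each of the 6 arrays, each gene in standard units over the arrays (vertical axis). The genes were chosen for this pattern, and in all of those drawn Sel1L-deficient replicate 2 lies farthest from the wildtype arrays.

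The wider PAP2-type phosphatase list, which holds enzymes that share the fold of the PLPP proteins, had 13 measured genes, of which 0 rose, 1 fell and 12 did not pass. The share of all genes that fell was 0.153%. An unadjusted limma p under 0.05 was reached by 2 of the 13, beside 9.48% of all genes. The gene that fell was G6pc2, the islet glucose-6-phosphatase subunit and also a β-cell marker, at 9.90, 9.76 and 10.06 in Sel1L-deficient islets, against 10.79, 10.65 and 11.00 in wildtype islets (difference -0.91 ± 0.13 SE; limma adjusted p = 0.0449). It did not pass in any of the 6 fits that left out 1 array. Sgpp1, an ER phosphatase that removes the phosphate of S1P, read 7.37, 7.64 and 7.31 in Sel1L-deficient islets, against 7.12, 6.94 and 7.06 in wildtype islets. The groups of Sgpp1 did not overlap, as in 4 of the 13 genes and 15.1% of all genes. Its difference of 0.40 ± 0.12 SE did not pass (limma adjusted p = 0.347). Dolpp1, which recycles dolichol phosphate for glycosylation, differed by -0.24 and the sphingomyelin synthase gene Sgms1 by 0.19. The remaining PLPP genes differed by -0.08 for Plpp4, 0.16 for Plpp5, 0.00 for Plpp6 and 0.13 for Plpp7. The list median was 0.01, beside 0.00 for all genes.

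Genes that make or consume LPA and phosphatidate had 0 of 23 measured members past the threshold (4 at an unadjusted p under 0.05, beside 9.48% of all genes), with a median difference of 0.01. The values farthest from 0 were those of Agpat4, an acyltransferase that turns LPA into phosphatidate, with 0.61 ± 0.12 SE (limma adjusted p = 0.142), and Dgka, a diacylglycerol kinase, with 0.47 ± 0.12 SE (adjusted p = 0.249). Agpat4 read 5.16, 5.37 and 5.22 in Sel1L-deficient islets, against 4.48, 4.69 and 4.75 in wildtype islets. The kinase genes Dgkh and Dgke differed by -0.29 each. The lipin phosphatidate phosphatases, which act without a membrane span, differed by 0.08 for Lpin1, 0.13 for Lpin2 and -0.08 for Lpin3.

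The S1P and ceramide list had 0 of 15 members past the threshold (3 at an unadjusted p under 0.05, beside 9.48% of all genes) and a median of -0.06. Asah1, the lysosomal acid ceramidase, read 7.52, 7.85 and 8.09 in Sel1L-deficient islets, against 8.30, 8.30 and 8.34 in wildtype islets (difference -0.50 ± 0.15 SE, limma adjusted p = 0.338). Its groups did not overlap, as in 4 of the 15 genes and 15.1% of all genes. The ceramide kinase gene Cerk differed by -0.31, the neutral ceramidase gene Asah2 by 0.27 and the ceramide synthase gene Cers6 by 0.26, none of which passed.

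The receptors that sense LPA and S1P had 0 of 9 members past the threshold (2 at an unadjusted p under 0.05, beside 9.48% of all genes), with a median of -0.01. Only 4 of the 9 had a mean above the array medians. Lpar1, an LPA receptor, read 3.65, 3.50 and 3.79 in Sel1L-deficient islets, against 4.13, 4.18 and 3.91 in wildtype islets (difference -0.43 ± 0.12 SE, limma adjusted p = 0.328). Its groups did not overlap, as in 2 of the 9 genes and 15.1% of all genes. The S1P receptor genes S1pr3 and S1pr1 differed by 0.46 and 0.38, and S1pr5 by -0.20. Lpar2, the receptor through which Plppr4 acts at synapses in mice, had means of 2.52 in Sel1L-deficient and 2.53 in wildtype islets, below the array medians.

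The list of neurite and filopodium genes had 0 of 15 members past the threshold (3 at an unadjusted p under 0.05, beside 9.48% of all genes) and a median of -0.03. Rasgrf2, an exchange factor for Ras-type GTPases, read 7.35, 6.95 and 6.84 in Sel1L-deficient islets, against 6.37, 6.60 and 6.51 in wildtype islets. Its groups did not overlap, as in 4 of the 15 genes and 15.1% of all genes. Its difference was 0.56 ± 0.15 SE (limma adjusted p = 0.280). Tubb3, a neuronal tubulin, differed by -0.63 ± 0.20 SE (adjusted p = 0.373), the growth-cone gene Basp1 by 0.34 and Stmn2 by -0.51 with the widest spread of the list (SE 0.58). The growth-cone gene Gap43 differed by 0.05. Markers of Schwann cells and of neurons had 0 of 8 members past the threshold, with list means of 4.24 to 4.66 in Sel1L-deficient and 4.29 to 4.45 in wildtype arrays. The highest of these list means was on Sel1L-deficient replicate 2, the array with the highest Plppr5, and its part in that value was not tested. Gene means in this list ran from 1.63 for S100b, below the array medians, to 10.1 for Snap25. Whether the list mean follows neural cells was not tested.

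**Figure D5:**
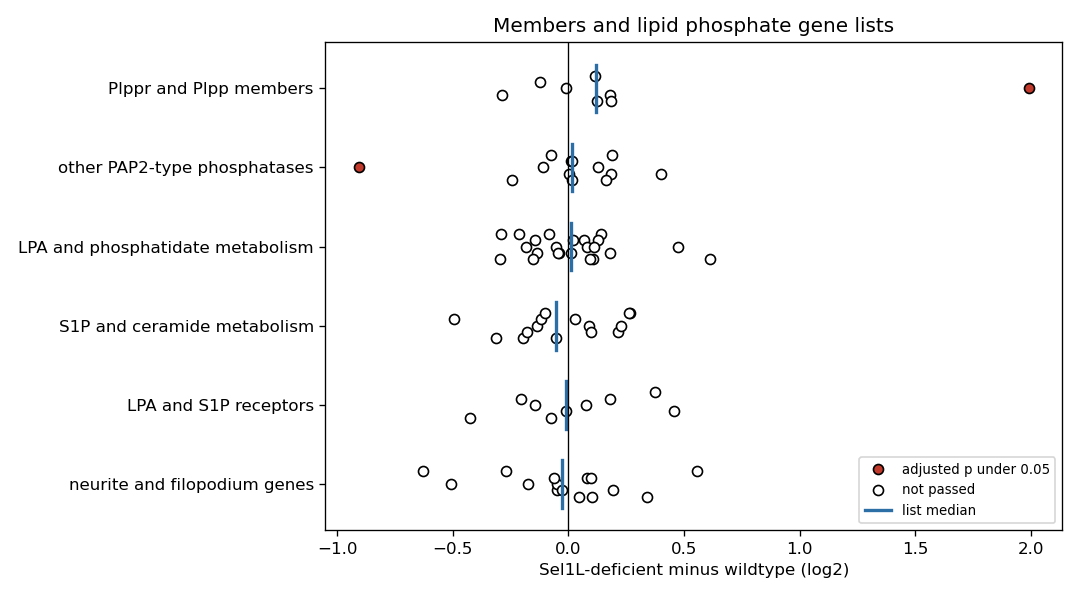
Difference between Sel1L-deficient and wildtype islets (log2, horizontal axis) for each gene of the family and of 5 lists, 1 point per gene, filled where the adjusted p was under 0.05, with a blue bar at the list median. Plppr5 and G6pc2 are the filled points, and the list medians lie between -0.06 and 0.12.

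Some cell type markers also differed between the genotypes. Of 9 measured β-cell markers 4 fell and 0 rose, where 0.153% of all genes fell. Markers past the threshold numbered 1 without Sel1L-deficient replicate 1 or 2 and without wildtype replicate 1 or 3, 2 when wildtype replicate 2 was left out, 3 when Sel1L-deficient replicate 3 was left out, and 0 on the arrays without Y-linked transcripts. The β-cell list mean was 8.90 to 9.08 in Sel1L-deficient and 9.73 to 10.0 in wildtype arrays. All 9 β-cell markers were lower without overlap, where 15.1% of all genes did not overlap. They were lower by unequal amounts, with a median difference of -0.66. The 4 that fell were Mafa (-2.11), Ucn3, Slc2a2 (-1.38) and G6pc2 (-0.91). The insulin gene Ins2 differed by -0.50, and Iapp and Slc30a8 by only -0.09 and -0.07. Whether the list mean follows β-cell content was not tested. None of the 9 endothelial or of the 9 mesenchymal markers passed, but all had positive differences, with medians of 0.44 and 0.47. An unadjusted limma p under 0.05 was reached by 6 endothelial and 3 mesenchymal markers, beside 9.48% of all genes. The mesenchymal list mean was 5.06 to 5.35 in Sel1L-deficient and 4.29 to 5.13 in wildtype arrays, so it overlapped. None of the 3 measured α-cell or 5 δ- and PP-cell markers passed, with medians of 0.17 and 0.14. The 5 acinar markers, with list means of 5.92 to 7.94 in Sel1L-deficient and 6.45 to 8.31 in wildtype arrays, were highest on the arrays of replicate 3 in both genotypes. The 4 duct markers and the 5 leukocyte markers had 0 past the threshold and medians of -0.08 and -0.02. The part of these shifts in the Plppr5 difference was not tested.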

How the data were processed

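RNA of 6 islet samples was hybridised to Affymetrix arrays. The authors deposited 1 table of log2 values, summarised with RMA per the submitters' processing notes; its version and filters are not given in the sources used here, and the log base was inferred from the range of the values. Gene names came from the platform annotation, updated by Entrez identifier through RefSeq (GRCm38.p6): 23521 of 41345 probe sets had 1 symbol, 1814 several and 16010 none. Each gene took its brightest probe set, giving 22180 genes. Sel1L-deficient minus wildtype differences, with no covariate, were tested with limma 3.58.1 in R 4.3.3 (two-sided) with Benjamini-Hochberg adjustment over all genes, at 0.05. On 5 sets of simulated data limma recovered 75.2% of genes with a log2 change of 1 and 97.6% with a change of 2, and 4.64% of calls were false. The simulated noise was independent between genes and arrays. It held no factor shared by an array, such as sex or acinar content, so these shares need not hold for the real arrays. The number of arrays limits the precision. Members and lists were chosen with earlier results of these data known. Named genes were the members, Sel1l, in each lipid or neurite list those past the threshold and up to 4 with the largest differences, the genes most like and unlike Plppr5, and its neighbours; others, among them remaining PLPP genes, lipins, Lpar2 and Gap43, were named after their values had been seen. Motifs were searched in 250-base windows of the RefSeq promoter table, which held 7 of the 8 members, and were chosen with the windows in view. The sequence of Plpp1 is not shown.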

Additional observations from a re-analysis of the deposited data

How the results depend on the processing

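The 3 arrays per genotype limit these values, and the table has no detection calls, so signal over background was not measured. Of 14 alternatives, 6 cannot alter the difference of a gene with 1 probe set, and 8 could. For Plppr3, absent from the setting limited to genes above the array median, these numbers were 13, 5 and 8. Over those 8 the difference lay between 1.66 and 2.25 for Plppr5, -0.29 and 0.02 for Plppr1, 0.06 and 0.18 for Plppr2, -0.01 and 0.44 for Plppr3, -0.49 and -0.15 for Plppr4, 0.03 and 0.26 for Plpp1, 0.09 and 0.28 for Plpp2, and -0.11 and 0.08 for Plpp3. Genes past the threshold numbered 54 in all, 4 to 29 with 1 array left out, 1 on the 4 arrays without Y-linked transcripts, 3 with every probe set tested on its own and 133 with a trended, robust variance prior. Members past it numbered 0 or 1 with 1 array left out, and 0 both without the arrays with Y-linked transcripts and with every probe set on its own. Pathway genes past it numbered 0 with any 1 array left out and 0 in the same 2 settings. Marker genes past it numbered 1 to 3 with 1 array left out, 0 without the arrays with Y-linked transcripts and 1 with every probe set on its own. The cause of these shifts was not tested. The settings that left out arrays had fewer arrays, and the setting with every probe set had more features. With the replicate number as a block 36 genes passed, with 1 member, 1 pathway gene and 4 markers. Same-numbered arrays correlated at 0.105, 0.072 and 0.21 in their deviations from the group means, so the numbers were not taken as pairs, though every array correlated best with its own number.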

Other observations

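Plppr2, whose values overlapped between the genotypes, had a repeat in its upstream window that was noticed by reading the sequence. The 250 bases before its RefSeq start, at chr9:21936760-21937009 on the plus strand of GRCm38.p6, hold 4 copies of the octamer ATGCAAAT, shown in capitals because it is the sequence class read by POU-domain factors.
Plppr2: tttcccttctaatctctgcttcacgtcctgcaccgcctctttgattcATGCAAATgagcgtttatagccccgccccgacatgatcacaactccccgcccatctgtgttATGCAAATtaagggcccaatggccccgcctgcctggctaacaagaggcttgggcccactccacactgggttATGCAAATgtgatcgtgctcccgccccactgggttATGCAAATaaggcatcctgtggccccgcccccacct
At least 1 copy on either strand was present in 1.6% of the 32851 windows, and 1 window, that of Plppr2, held 4 or more. None of the other 6 family windows in the table held the octamer. The motif was chosen after the window was read, and the arrays say nothing of binding.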
